A study of Homo sapiens with 6 samples.

Results

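The 70 kDa heat shock protein (HSP70), HSP40 and small heat shock protein genes were taken from the expression table by name, as every protein-coding gene whose symbol begins with HSPA, HSPB, DNAJA, DNAJB or DNAJC, together with *HSPD1*, *HSPE1* and *HSPH1*. This gave 74 genes out of 58735, of which 19951 were protein-coding. The 74 genes carry 73 symbols, because *HSPA14* is listed under 2 identifiers. They were divided into heat-inducible members (10), members of the endoplasmic reticulum (ER) lumen (6) and ER membrane (6), constitutive HSP70 (8), mitochondrial members (6), other small heat shock proteins (6), other J proteins of types A and B (9) and of type C (18), 3 genes taken through the HSPB prefix alone and 2 readthrough genes. The mitochondrial chaperonin genes *HSPD1* and *HSPE1* were placed among the heat-inducible members and not in the mitochondrial class.

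TPC-1 cells come from a human papillary carcinoma of the thyroid, and mRNA of 3 libraries of the wild strain was compared with that of 3 libraries of *RRM2*-OE-TPC-1. The latter is the same line infected with a lentivirus that carries *RRM2*, the small subunit of ribonucleotide reductase, behind a CMV promoter, and selected with puromycin. The control was not infected with an empty vector, so that the parts of *RRM2*, of the infection and of the selection in a difference cannot be told apart. For replicates 2 and 3 of the infected line the genotype label names RRM3 and RRM4, whereas all 3 titles give *RRM2*. In FPKM (fragments per kilobase of gene, scaled to the depth of the library), *RRM2* was 9.17, 9.05 and 8.52 in the TPC-1 libraries and 50.4, 47.5 and 47.2 in the *RRM2*-OE-TPC-1 libraries, higher in each *RRM2*-OE-TPC-1 library as its title states.

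HSP70 proteins bind unfolded stretches of other proteins and release them in a cycle driven by ATP. J proteins (HSP40) bring clients to HSP70 and start ATP hydrolysis, nucleotide exchange factors such as the HSP110 protein *HSPH1* end the cycle, and small heat shock proteins hold unfolded proteins without ATP. Under proteotoxic stress the factor *HSF1* binds heat shock elements (HSE), inverted repeats of the unit GAA, and switches on the inducible members. ER members such as *HSPA5* answer instead to the unfolded protein response, in part through the ER stress response element (ERSE).

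Promoter stretches of 6 members with such elements are shown first, since several results turn on these genes. In the heat-inducible class, HSE matches were found for *HSPA6*, *HSPD1*, *DNAJA1*, *HSPA1A*, *HSPA1B*, *HSPB1*, *DNAJB1* and *HSPA4L*, and none in the windows of *HSPH1* and *HSPE1*. Outside it they were found for *HSPA8*, *HSPA1L*, *HSPA9*, *HSPB3*, *HSPB6*, *HSPB8*, *DNAJA4*, *DNAJB4*, *DNAJB6*, *DNAJB7*, *DNAJC6* and *DNAJC15*. All matches were read from RefSeq promoter windows on GRCh38.p14, which reach from 250 bases before to 50 bases after a gene's start and were found for 64 of the 73 symbols (82 windows). Both strands were searched for the HSE of 3 units, GAANNTTCNNGAA or TTCNNGAANNTTC, for the shorter HSE of 2 units, GAANNTTC or TTCNNGAA, each of which is contained in the longer one, and for the ERSE, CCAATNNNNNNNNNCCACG. Each sequence is given 5′ to 3′ on the gene's strand with the matches in capitals. *HSPA8* is shown for its pair of 3-unit matches (chr11:123062137-123062386, minus strand), *HSPD1* for overlapping 3-unit matches (chr2:197499971-197500090, minus strand) and *HSPA6* for a single one (chr1:161524426-161524518, plus strand). *DNAJB1* (chr19:14518398-14518514, minus strand) and *HSPB1* (chr7:76302451-76302538, plus strand) are shown for 2-unit matches, and *HSPA5* for the ERSE (chr9:125241351-125241449, minus strand).
HSPA8: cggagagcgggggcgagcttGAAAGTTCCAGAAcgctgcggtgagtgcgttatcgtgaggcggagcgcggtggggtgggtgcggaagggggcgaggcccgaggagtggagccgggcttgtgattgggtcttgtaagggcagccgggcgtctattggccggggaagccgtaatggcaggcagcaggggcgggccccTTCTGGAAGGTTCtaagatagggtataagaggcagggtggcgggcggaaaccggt
HSPD1: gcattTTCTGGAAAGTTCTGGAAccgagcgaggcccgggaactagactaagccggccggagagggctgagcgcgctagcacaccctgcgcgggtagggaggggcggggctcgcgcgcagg
HSPA6: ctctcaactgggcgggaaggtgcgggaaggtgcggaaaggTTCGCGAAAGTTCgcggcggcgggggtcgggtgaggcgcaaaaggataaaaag
DNAJB1: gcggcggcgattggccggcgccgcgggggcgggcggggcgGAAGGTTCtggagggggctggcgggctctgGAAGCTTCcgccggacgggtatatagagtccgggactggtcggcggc
HSPB1: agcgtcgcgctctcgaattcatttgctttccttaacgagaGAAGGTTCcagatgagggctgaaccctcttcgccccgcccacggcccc
HSPA5: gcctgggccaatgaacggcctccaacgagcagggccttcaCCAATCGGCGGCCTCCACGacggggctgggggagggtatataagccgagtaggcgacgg

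The 3-unit HSE was found in 5 member windows (6.10%), those of *HSPA8*, *HSPD1*, *HSPA6*, *DNAJB6* and *DNAJA1*, against 172 of 35116 windows of all genes (0.490%). In *DNAJA1* it began 4 bases after the start. GAANNTTC was found in 16 member windows of 15 genes (19.5%, against 6.77% of all windows), *HSPA1A*, *HSPA1B*, *DNAJB1* and *HSPB1* among them, and TTCNNGAA in 11 (13.4%, against 7.74%), *HSPA4L* among them. The ERSE was found in *HSPA5* alone of the members (1.22%, against 0.0769%). *HSPE1* and *HSPD1* lie head to head, and the HSE of *HSPD1* lay at positions -245 to -228 from one *HSPD1* start, downstream of the other *HSPD1* start at 189 to 206, and at -311 to -294 from the start of *HSPE1*, outside the window of *HSPE1*. These matches describe letters in a window, and binding was not measured.

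A gene was tested with limma on log2(FPKM + 0.1) where its FPKM reached 0.5 and its reads reached 10 in 3 or more libraries. Such fold changes understate those of weakly expressed genes. An exact permutation test over 3 and 3 libraries cannot go below a two-sided p of 0.1, so the calls rest on limma's pooling of the spread over all genes, and they measure the spread between these libraries. Of the 74 members 55 were tested. At an adjusted p of 0.05 or less, 27 were higher in *RRM2*-OE-TPC-1, 13 were lower and 15 were not called. So many genes of these cells differed that 72.7% of the tested members called stands beside 67.6% of all 13621 tested genes. By direction, 49.1% of the tested members were higher against 34.9% of all genes, and 23.6% were lower against 32.7%. A second call also asked for a log2 fold change of at least 1 in either direction, which 8 members passed as higher (14.5%, against 4.48% of all genes) and 1 as lower (6.97% of all genes). The 8 were *HSPE1*, *HSPA8*, *HSPA1B*, *HSPH1*, *DNAJB4*, *HSPA4L*, *DNAJC6* and *HSPD1*, and the 1 was *DNAJC22*. The 3 values of one group lay apart from those of the other for 41 tested members, 27 higher and 14 lower (74.5%, against 72.2% of all genes, of which 37.3% were higher and 35.0% lower). The median log2 fold change was 0.12 over the tested members and 0.011 over all tested genes. In bulk RNA, a change in the share of cells of a kind and a change in RNA per cell cannot be told apart.

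**Figure D1:**
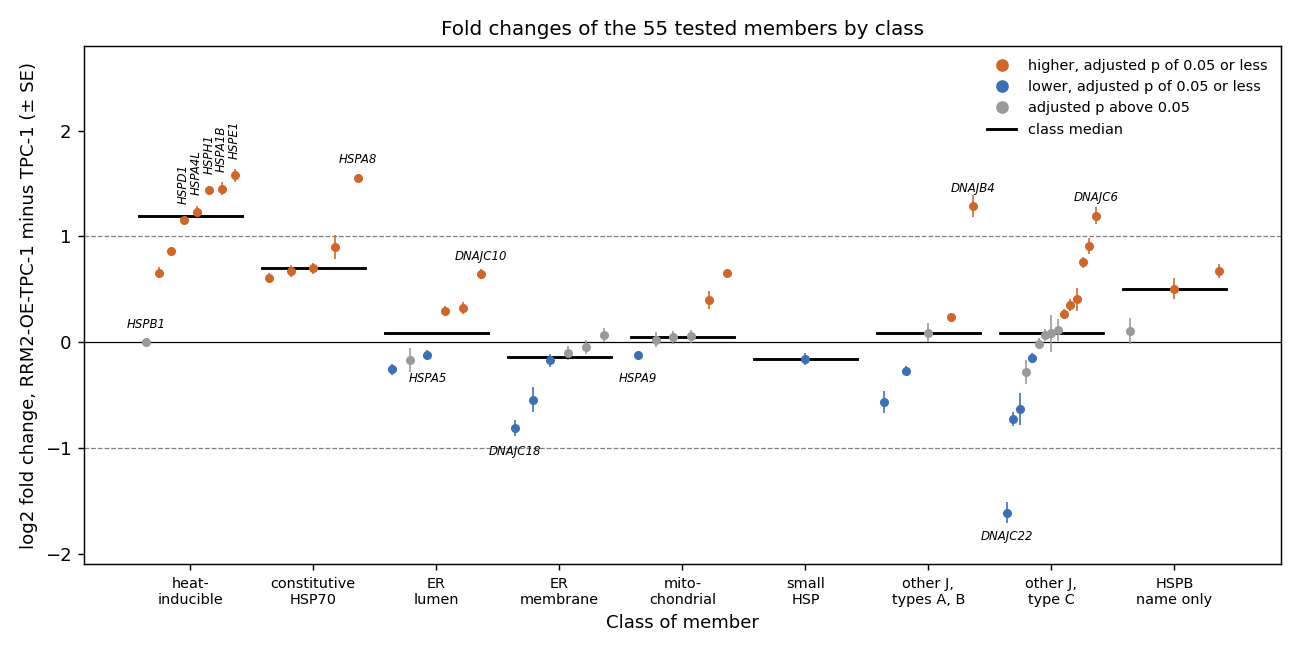
Log2 fold change (*RRM2*-OE-TPC-1 minus TPC-1, y axis) of each of the 55 tested members, in columns by class, with bars of 1 standard error, a black line at each class median and dashed lines at 1 and -1. The heat-inducible and constitutive HSP70 columns lie above 0 except for *HSPB1*, and the ER columns lie on both sides of it.

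Of the 10 heat-inducible members, 8 were tested, 7 rose in *RRM2*-OE-TPC-1 and none fell, and *HSPB1* was not called. Their median log2 fold change was 1.20, and 5 of them passed the second call. Over the other 47 tested members the median was 0.086, with 20 higher, 13 lower and 14 not called. Among all tested genes, 34.9% were higher, 32.7% were lower and 4.48% passed the second call as higher. No test compared the classes with each other.

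*HSPE1* (HSP10), the lid of the mitochondrial chaperonin, had 9.46, 8.93 and 8.60 FPKM in TPC-1 against 24.8, 28.2 and 28.2 in *RRM2*-OE-TPC-1. Its partner *HSPD1* (HSP60), the barrel of that chaperonin, had 84.0, 84.2 and 87.4 FPKM in TPC-1 against 195, 186 and 188 in *RRM2*-OE-TPC-1. All libraries of *RRM2*-OE-TPC-1 were above all of TPC-1 for both genes, although the chaperonin pair works in mitochondria and the mitochondrial HSP70 described further on did not rise. The log2 fold change was 1.58 for *HSPE1* (standard error, SE, 0.0615, adjusted p = 3.39e-07) and 1.16 for *HSPD1* (SE 0.0342, adjusted p = 9.91e-08). The FPKM ratio of *HSPD1* to *HSPE1* was 8.88 to 10.2 in TPC-1 against 6.59 to 7.85 in *RRM2*-OE-TPC-1, so the libraries of the groups did not overlap in it either. The exons of these genes overlap on opposite strands over 281 bases (14.2% of those of *HSPE1*, 6.62% of those of *HSPD1*), and whether strand was used in counting is not given in the sources used here.

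*HSPH1* (HSP110), a nucleotide exchange factor of HSP70, had 9.65, 9.43 and 9.60 FPKM in TPC-1 against 26.0, 25.2 and 27.1 in *RRM2*-OE-TPC-1. *HSPA4L*, a second gene of the HSP110 kind, had 3.87, 3.72 and 3.91 FPKM in TPC-1 against 9.06, 9.07 and 9.34 in *RRM2*-OE-TPC-1. *HSPH1* was 2.73 times and *HSPA4L* 2.39 times the TPC-1 mean, with no overlap of the groups. Their log2 fold changes were 1.44 (SE 0.0404, adjusted p = 8.00e-08) and 1.24 (SE 0.0503, adjusted p = 4.29e-07).

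The classical inducible HSP70 genes had low FPKM, a level that depends on how shared reads were counted. *HSPA1B* had 1.97, 2.12 and 2.07 FPKM in TPC-1 against 5.79, 5.93 and 5.65 in *RRM2*-OE-TPC-1. It rose by 1.45 on the log2 scale (SE 0.0653, adjusted p = 7.09e-07), without overlap, from a counted level far below that of *HSPA8*. *HSPA1A*, which encodes a near-identical protein, was under the minimum of the test, with 21 reads in the TPC-1 libraries together and 50 in those of *RRM2*-OE-TPC-1 (ratio per depth 2.48, 95% interval 1.46 to 4.34 for counting error only). Between 67.1% and 70.0% of the 150-base windows of the transcripts of this pair are shared, so reads may have been split between them or dropped. Of the *HSPA1B* exon bases, 36.5% also overlap *AL671762.1* on the same strand. The summed FPKM of *HSPA1A* and *HSPA1B* was 2.12 to 2.31 in TPC-1 against 6.03 to 6.49 in *RRM2*-OE-TPC-1. This holds however the reads were split within the pair, but does not recover reads that were dropped. *HSPA6*, the HSP70 gene most strictly tied to stress, had 2 reads in all TPC-1 libraries together and 39 in those of *RRM2*-OE-TPC-1 (ratio per depth 20.3, 95% interval 5.25 to 173.5 for counting error only). The highest *HSPA6* value was 0.397 FPKM, so this gene stayed near the limit of detection in both groups, and 15.2% of its windows are shared with *HSPA7*.

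*DNAJA1* and *DNAJB1*, the J proteins of the heat-inducible class, had log2 fold changes below 1. *DNAJA1*, the main type A J protein of the cytosol, had 49.1, 46.7 and 46.2 FPKM in TPC-1 against 90.1, 83.9 and 84.5 in *RRM2*-OE-TPC-1. *DNAJB1* (HSP40), the inducible type B partner of HSP70, had 18.1, 16.8 and 16.7 FPKM in TPC-1 against 29, 26.3 and 26.3 in *RRM2*-OE-TPC-1. Each group lay apart from the other, and the log2 fold changes were 0.86 for *DNAJA1* (SE 0.0407, adjusted p = 8.80e-07) and 0.66 for *DNAJB1* (SE 0.0525, adjusted p = 1.31e-05). In *DNAJB1*, 5.75% of the exon bases overlap *TECR* on the opposite strand. *HSPA8* was 2.89 to 3.01 times *DNAJA1* in FPKM in the TPC-1 libraries and 4.64 to 4.85 times in those of *RRM2*-OE-TPC-1.

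*HSPB1* (HSP27), the most abundant small heat shock protein gene here and a gene of the heat shock response, differed from the rest of its class in its value. It had 206, 192 and 204 FPKM in TPC-1 against 199.6, 204 and 198 in *RRM2*-OE-TPC-1, with overlapping groups. Its log2 fold change was 0.00047 (95% interval -0.088 to 0.089, adjusted p = 0.992), and the interval lies below the log2 fold changes of the other 7 tested members of its class, of which 0.66 was the lowest.

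**Figure D2:**
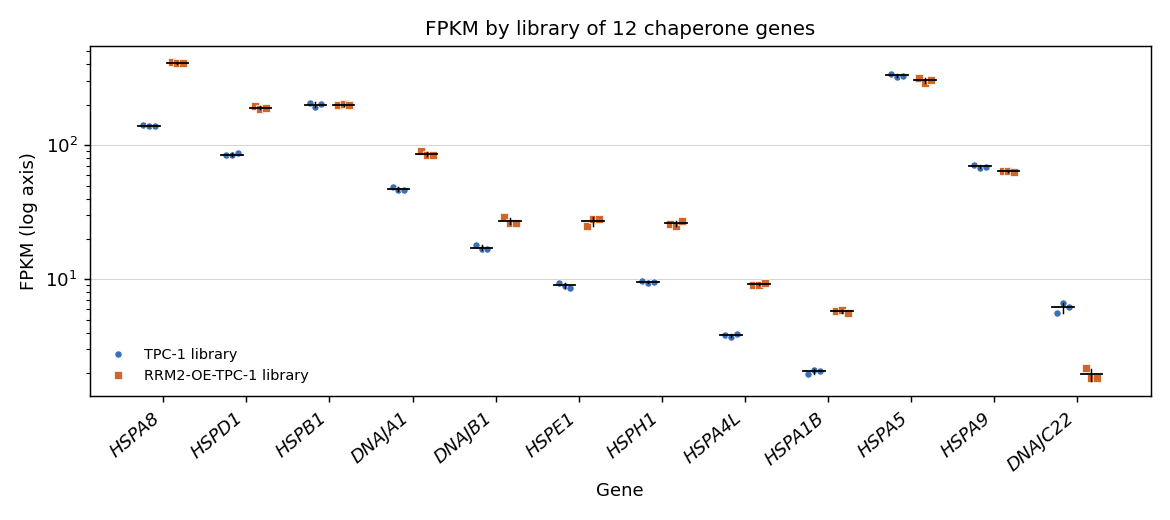
FPKM (y axis, log scale) of 12 chaperone genes in each of the 3 TPC-1 libraries (circles) and 3 *RRM2*-OE-TPC-1 libraries (squares), with black lines at the mean and bars of 1 SD. The groups overlap for *HSPB1*, and *HSPA5*, *HSPA9* and *DNAJC22* are the genes with lower values in *RRM2*-OE-TPC-1.

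All 5 tested entries of the constitutive HSP70 class rose, beside 34.9% of all tested genes, and 2 of the entries are the overlapping identifiers of *HSPA14*. The median log2 fold change of the entries was 0.70, the value of an *HSPA14* entry, and 1 gene of the class passed the second call. *HSPA8* (HSC70), the main HSP70 of the unstressed cytosol, had 142, 140 and 139 FPKM in TPC-1 against 418, 407 and 409 in *RRM2*-OE-TPC-1. It nearly tripled without overlap of the groups, from 140.1 ± 1.58 to 411 ± 6.04 FPKM (mean ± SD of 3 libraries), a ratio of 2.94 and a log2 fold change of 1.55 (SE 0.0322, adjusted p = 2.17e-08). Left out in turn, the libraries gave log2 fold changes between 1.54 and 1.56. Although it is counted as constitutive, its log2 fold change was near the 1.45 of the inducible *HSPA1B*, and the FPKM ratio of *HSPA8* to *HSPA1B* was 66.0 to 71.8 in TPC-1 against 68.7 to 72.4 in *RRM2*-OE-TPC-1, with overlapping ranges. Both promoter windows hold HSE matches, of 3 units in *HSPA8* and of 2 units in *HSPA1B*. Among the other tested members, matches of 2 units lie in windows of *HSPD1*, *DNAJA1*, *DNAJB1*, *HSPA4L*, *DNAJB4* and *DNAJC6*, which were called higher. They also lie in windows of *HSPB8*, *HSPA9* and *DNAJB6*, which were called lower, and of *HSPB1* and *DNAJC15*, which were not called.

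*HSPA4* (APG-2), a nucleotide exchange factor of the HSP110 kind, had 39.0, 38.3 and 38.8 FPKM in TPC-1 against 62.9, 56.9 and 57.1 in *RRM2*-OE-TPC-1, a log2 fold change of 0.61 (adjusted p = 7.87e-06). *HSPA14*, which forms the ribosome-associated complex with the J protein *DNAJC2*, rose under both of its identifiers, from 6.41 to 10.5 FPKM for ENSG00000187522 and from 3.66 to 5.89 for ENSG00000284024 (log2 fold changes 0.70 and 0.67). Their exons overlap on the same strand, and they are not independent measurements. *DNAJC2* itself had 2.52, 2.23 and 2.21 FPKM in TPC-1 against 4.40, 4.46 and 4.42 in *RRM2*-OE-TPC-1, so both subunits of that complex were higher, *DNAJC2* by 0.91 on the log2 scale (adjusted p = 1.66e-05). Of the *DNAJC2* exon bases, 9.57% overlap *PMPCB* on the opposite strand. *HSPA12A*, a distant member of the HSP70 family, rose by 0.90 from 1.27 to 2.44 FPKM (adjusted p = 1.87e-04). *HSPA2*, *HSPA1L* and *HSPA12B* were under the minimum, and none passed 0.342 FPKM in a library.

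Summed over the HSP70 and HSP110 family (15 HSPA genes and *HSPH1*), FPKM was 639, 614 and 623 in TPC-1 against 939, 895 and 911 in *RRM2*-OE-TPC-1, a ratio of means of 1.46. *HSPA8* made up 22.4% ± 0.376 of the sum in TPC-1 against 45.0% ± 0.482 in *RRM2*-OE-TPC-1 (mean ± SD of 3 libraries). *HSPA5*, the HSP70 of the ER, made up 53.0% ± 0.513 and 33.3% ± 0.567. The HSP70 gene with the highest FPKM was thus *HSPA5* in each TPC-1 library and *HSPA8* in each *RRM2*-OE-TPC-1 library. The FPKM ratio of *HSPA8* to *HSPA5* was 0.415 to 0.436 in TPC-1 against 1.32 to 1.39 in *RRM2*-OE-TPC-1. Such shares and ratios between genes depend on the gene lengths behind FPKM, 4849 bases for *HSPA8* and 3908 for *HSPA5*. The longest protein-coding transcripts of these genes have 2463 and 3908 bases. *HSPA9* made up 11.1% and 6.98% of the sum in the same order, *HSPH1* made up 1.53% and 2.85%, and *HSPA4* lay between 6.10% and 6.69% in every library. By class, the summed FPKM of *RRM2*-OE-TPC-1 was 2.57 times that of TPC-1 for constitutive HSP70 and 1.53 times for the heat-inducible genes (2.13 times without *HSPB1*). The ratio was 1.23 for all J proteins, 0.939 for the ER lumen and 0.845 for the ER membrane. For the mitochondrial class it was 1.01, without the chaperonin genes *HSPD1* and *HSPE1* (2.23 and 3.01 times), which were counted as heat-inducible. All members together took 0.597% to 0.613% of the reads in TPC-1 against 0.799% to 0.839% in *RRM2*-OE-TPC-1.

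**Figure D3:**
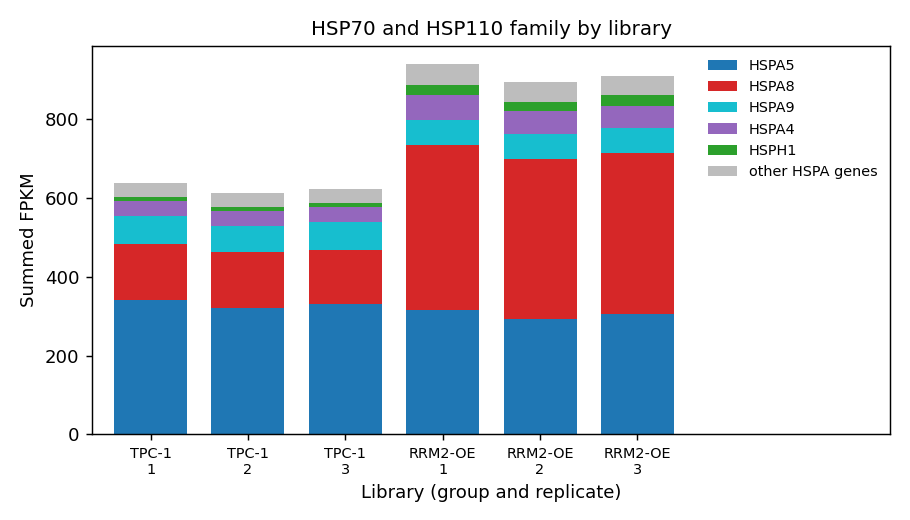
Summed FPKM (y axis, from 0) of the HSP70 and HSP110 family in each library, stacked by gene, with the 3 TPC-1 libraries on the left and the 3 *RRM2*-OE-TPC-1 libraries on the right. The *HSPA8* segment grows from 139 to 142 FPKM on the left to 407 to 418 on the right, while the *HSPA5* segment stays between 292 and 342.

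The 12 ER members were all tested and went both ways: 3 rose, 5 fell and 4 were not called. Their median log2 fold change was -0.11, and none passed the second call. Of all tested genes, 34.9% were higher, 32.7% were lower and 11.5% passed the second call in either direction. In the lumen 3 rose and 2 fell (median 0.086), and in the membrane none rose and 3 fell (median -0.14). The calls of *HSPA5* and *DNAJB12* were lost, leaving 3 lower, without replicate 1 or replicate 3 of TPC-1, without replicate 2 or replicate 3 of *RRM2*-OE-TPC-1, and with no filter on low values.

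*HSPA5* (BiP), the HSP70 of the ER lumen and a standard readout of the unfolded protein response, had 342, 322 and 331 FPKM in TPC-1 against 316, 292 and 305.5 in *RRM2*-OE-TPC-1. The groups lay apart by little: the log2 fold change was -0.12 (SE 0.0435, adjusted p = 0.0357), with an adjusted p of up to 0.141 when a library was left out. *HSPA13*, a further HSP70-like ATPase of microsomes, fell by 0.26 on the log2 scale (adjusted p = 0.00220). Among the J proteins that serve *HSPA5*, the disulfide reductase *DNAJC10* (ERdj5) had 4.47, 4.62 and 4.59 FPKM in TPC-1 against 7.39, 6.98 and 7.18 in *RRM2*-OE-TPC-1, the largest rise of the ER members (log2 fold change 0.64, adjusted p = 1.34e-05). *DNAJC3* (p58IPK), an inhibitor of the kinase PERK, and *DNAJB11* (ERdj3), which binds unfolded secretory proteins, rose by 0.32 and 0.29 (adjusted p = 0.00111 and 9.96e-04). *DNAJB9* (ERdj4), a repressor of the sensor IRE1, had 4.65, 4.34 and 4.42 FPKM in TPC-1 against 4.12, 4.57 and 3.30 in *RRM2*-OE-TPC-1, with overlapping groups (log2 fold change -0.17, 95% interval -0.43 to 0.091, adjusted p = 0.213).

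In the ER membrane *DNAJC18* had 3.45, 3.38 and 3.43 FPKM in TPC-1 against 1.87, 1.97 and 1.87 in *RRM2*-OE-TPC-1, the largest fall of the ER members (log2 fold change -0.81, adjusted p = 2.38e-05). *DNAJC1* (ERdj1), which binds ribosomes at the translocon, fell by 0.54 on the log2 scale (adjusted p = 0.00368), and *DNAJB12*, a partner of *HSPA8* in the quality control of membrane proteins, by 0.17 (adjusted p = 0.0353). Its relative *DNAJB14* and the further membrane J proteins *DNAJC14* and *DNAJC16* were not called, with log2 fold changes of -0.10, -0.047 and 0.069 and 95% intervals that reached from -0.26 to 0.22. Of the *DNAJC14* exon bases 22.0% overlap *ORMDL2* on the opposite strand.

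Of the 6 mitochondrial members outside the chaperonin, 2 rose, 1 fell and 3 were not called, beside 34.9% higher and 32.7% lower among all tested genes. *HSPA9* (mortalin), the HSP70 of the matrix and the motor of protein import, had 71.3, 67.9 and 69.2 FPKM in TPC-1 against 64.2, 64.4 and 63.0 in *RRM2*-OE-TPC-1. Every *RRM2*-OE-TPC-1 library was below every TPC-1 library, by a log2 fold change of -0.12 (SE 0.0320, adjusted p = 0.0102). *DNAJC11*, which is linked to the organization of cristae, rose by 0.65 from 9.32 to 14.7 FPKM (adjusted p = 2.80e-06), and *DNAJC30* by 0.40 (adjusted p = 0.00316). Exons of *DNAJC11* overlap those of *THAP3*, and those of *DNAJC30* overlap *BUD23*, on the opposite strand (27.9% and 14.5% of exon bases). The J proteins of the import motor and the matrix, *DNAJC19*, *DNAJC15* and *DNAJA3*, were not called, with log2 fold changes of 0.025, 0.045 and 0.054 and 95% intervals within -0.14 and 0.20.

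Besides *HSPB1*, the only small heat shock protein gene that reached the minimum was *HSPB8* (HSP22), which acts with *BAG3* in selective autophagy. Its FPKM was 22.8, 20.5 and 20.5 in TPC-1 against 19.7, 18.1 and 19.3 in *RRM2*-OE-TPC-1. The log2 fold change of -0.16 passed the test (adjusted p = 0.0303), and the call was lost without TPC-1 replicate 1, without *RRM2*-OE-TPC-1 replicate 2, without *RRM2*-OE-TPC-1 replicate 3 and with no filter on low values. *HSPB2*, *HSPB3*, *HSPB6*, *HSPB7* and *HSPB9*, most of which are known from muscle or testis, were under the minimum.

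Of the other type A and type B J proteins, 5 of 9 were tested. *DNAJB4* (HLJ1), a cytosolic type B protein, had 3.44, 4.50 and 4.01 FPKM in TPC-1 against 10.8, 9.18 and 9.42 in *RRM2*-OE-TPC-1. It had the largest rise of the tested J proteins, without overlap, by a log2 fold change of 1.28 (SE 0.104, adjusted p = 1.43e-05), and its promoter window holds a 2-unit HSE. *DNAJA2*, a cytosolic type A relative of *DNAJA1*, rose by 0.24 (adjusted p = 0.00131). *DNAJB6*, which keeps polyglutamine proteins from aggregating and carries a 3-unit HSE, fell from 17.3 to 14.3 FPKM (log2 fold change -0.27, adjusted p = 5.70e-04). *DNAJB5* fell by 0.57 (adjusted p = 0.00135), and *DNAJB2*, a J protein of neurons, was not called (log2 fold change 0.091, 95% interval -0.11 to 0.29). Members with a 3-unit HSE in the window thus included genes that rose and 1 that fell.

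Of the other type C J proteins, 15 of 18 were tested, with 6 higher, 4 lower and 5 not called. Among all tested genes 34.9% were higher and 32.7% lower. *DNAJC6* (auxilin), which brings *HSPA8* to clathrin-coated vesicles for uncoating, had 2.57, 2.28 and 2.41 FPKM in TPC-1 against 5.90, 5.25 and 5.86 in *RRM2*-OE-TPC-1. It was higher in each *RRM2*-OE-TPC-1 library, by a log2 fold change of 1.20 (SE 0.0776, adjusted p = 4.28e-06). *DNAJC9*, a cochaperone of histones, had 5.95, 6.33 and 6.47 FPKM in TPC-1 against 10.8, 10.3 and 10.8 in *RRM2*-OE-TPC-1, a log2 fold change of 0.76 (adjusted p = 5.50e-06), with 24% of its exon bases overlapped by *FAM149B1* on the opposite strand. The synaptic vesicle protein *DNAJC5*, the splicing-associated *DNAJC8* and *DNAJC25* rose by 0.35, 0.27 and 0.41.

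The largest change of any tested J protein was a fall. *DNAJC22* had 5.64, 6.69 and 6.17 FPKM in TPC-1 against 2.18, 1.85 and 1.83 in *RRM2*-OE-TPC-1. Its values in *RRM2*-OE-TPC-1 were 0.317 times those in TPC-1 on average, with no overlap (log2 fold change -1.61, SE 0.0957, adjusted p = 2.71e-06). *DNAJC4* fell by 0.73 (adjusted p = 2.44e-05), and 10.6% of its exon bases overlap *NUDT22* on the same strand. *DNAJC27*, which carries a small GTPase domain, fell by 0.63 (adjusted p = 0.00529) and the endosomal *DNAJC13* by 0.15 (adjusted p = 0.0157). The call of *DNAJC13* was lost without replicate 3 of TPC-1 (adjusted p = 0.0515) and without replicate 2 or replicate 3 of *RRM2*-OE-TPC-1 (adjusted p = 0.0585 and 0.0516). *DNAJC17*, which was lower in all 3 *RRM2*-OE-TPC-1 libraries, missed the threshold (log2 fold change -0.28, adjusted p = 0.0556), but passed it without replicate 1 of *RRM2*-OE-TPC-1, with library totals and with voom on reads (adjusted p = 0.0472, 0.0275 and 0.0280). *DNAJC7*, *DNAJC21*, *DNAJC24* and *DNAJC12* were not called, with log2 fold changes between -0.014 and 0.12.

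Of the genes that carry the HSPB prefix without being small heat shock proteins, *HSPBP1*, a nucleotide exchange factor of HSP70, rose by 0.67 (adjusted p = 3.68e-05) and *HSPB11* (IFT25), a part of ciliary transport, by 0.50 (adjusted p = 0.00227). *HSPBAP1*, a partner of *HSPB1*, was not called (log2 fold change 0.11, 95% interval -0.18 to 0.39).

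Under the minimum were 19 members. Of these, 3 (*HSPB3* and the readthrough genes *DNAJC25-GNG10* and *HSPB2-C11orf52*) had no read in any library, and 8 had fewer than 10 reads in all libraries together. None passed 0.893 FPKM in a library, a value of *DNAJC28*. This type C member had 90 reads in the TPC-1 libraries and 28 in those of *RRM2*-OE-TPC-1 (ratio per depth 0.324, 95% interval 0.204 to 0.50 for counting error only). *DNAJB13*, *DNAJA4*, *DNAJB7*, *DNAJB8*, *DNAJC5B* and *DNAJC5G*, several of them known from testis, had at most 54 reads in either group.

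The regulators and partners of these genes were read from lists that were not part of the name rule. *HSF1*, the factor that binds heat shock elements, had 25.7, 24.5 and 25.2 FPKM in TPC-1 against 27.4, 28.3 and 27.8 in *RRM2*-OE-TPC-1, a log2 fold change of 0.15 (adjusted p = 0.00512). Of its relatives, *HSF4* fell from 2.65 to 1.62 FPKM (log2 fold change -0.69, adjusted p = 0.00460), *HSF2* was not called (log2 fold change -0.078, adjusted p = 0.399) and *HSF5* was under the minimum, whereas *HSBP1*, which binds *HSF1*, rose by 0.23 (adjusted p = 0.00322). Of 12 further genes known as targets of *HSF1*, 11 were tested, and 11 rose, with a median log2 fold change of 0.71. The 5 that passed the second call were *HSP90AA1* 2.31, *HSP90AB1* 1.15, *AHSA1* 1.11, *CACYBP* 1.07 and *FKBP4* 1.07 on the log2 scale, which encode cytosolic HSP90 and partners of it. Over all tested genes 34.9% were higher. This list and the heat-inducible class were both chosen with earlier results of these data known, so neither is a test of the other.

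Of 11 cochaperones of HSP70, 3 rose, 4 fell and 4 were not called, beside 34.9% higher and 32.7% lower among all tested genes. The mitochondrial nucleotide exchange factors went opposite ways: *GRPEL1* rose by 0.68 (adjusted p = 1.23e-05), whereas *GRPEL2* had 17.3, 16.4 and 16.2 FPKM in TPC-1 against 8.41, 7.90 and 7.47 in *RRM2*-OE-TPC-1 (log2 fold change -1.06, adjusted p = 1.28e-06). Among 3 J proteins with other names, *GAK*, the widely expressed relative of *DNAJC6*, rose by 0.44 (adjusted p = 1.53e-04). *SEC63*, the J protein of the translocon and a partner of *HSPA5*, fell by 0.35 (adjusted p = 7.38e-05), and *HSCB*, which serves iron-sulfur cluster assembly, was not called.

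The 20 genes of the unfolded protein response outside the name rule also went both ways, with 9 higher, 8 lower and 3 not called. Among all tested genes 34.9% were higher and 32.7% lower. The median log2 fold change of the list was 0.015. The second call was passed by 6 of its genes, against none of the ER members and 11.5% of all tested genes. Folding factors of the lumen passed the second call upwards, *SDF2L1* by 1.81, *CALR* by 1.16 and *CRELD2* by 1.04, and *SDF2L1* works with the same J proteins as *HSPA5*. Downwards passed *TRIB3* by -1.94, *DDIT3* (CHOP) by -1.85 and *HERPUD1* by -1.35, of which the first 2 belong to the *ATF4* arm and the last to ER-associated degradation. *HSPA5*, at -0.12, lay between these sets.

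**Figure D4:**
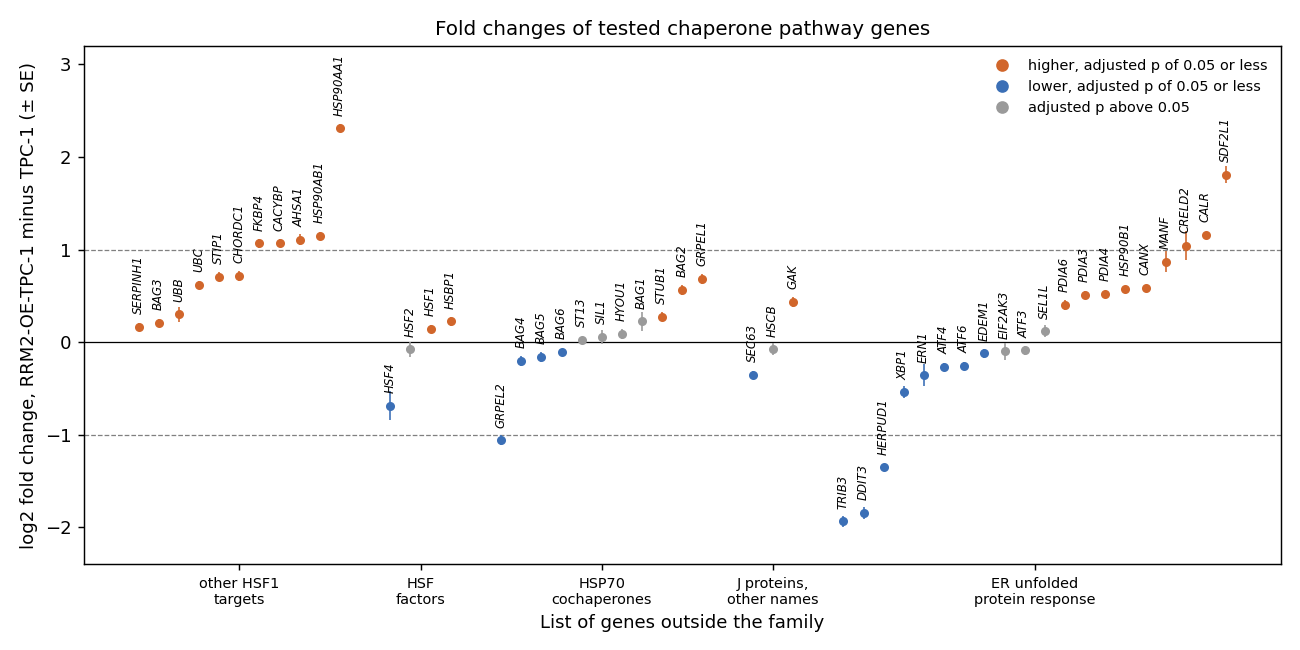
Log2 fold change (*RRM2*-OE-TPC-1 minus TPC-1, y axis) of the tested genes of 5 lists outside the name rule, sorted within each list, with bars of 1 standard error and dashed lines at 1 and -1. All 11 other *HSF1* targets lie above 0, while the ER unfolded protein response list runs from *TRIB3* at -1.94 to *SDF2L1* at 1.81.

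The libraries held 14317091 to 17084067 reads on genes, of which 4.29% to 5.89% were mitochondrial, and replicates of a group correlated at 0.990 to 0.992 on the log2 scale over genes. Of 10 thyroid and epithelial markers, the thyroid factors *PAX8* and *FOXE1* fell from 69.3 to 58.5 and from 4.30 to 3.19 FPKM, and the keratins *KRT18* and *KRT8* rose from 41.2 to 85.2 and from 2.56 to 3.48 FPKM. *KRT7* was not called (1.18 and 1.01 FPKM), *NKX2-1* was listed at 0, and *TG*, *TSHR*, *EPCAM* and *KRT19* stayed at or below 0.125 FPKM. Of 10 markers of other cell types, *PTPRC*, *CD3E*, *CD68*, *VWF*, *CDH5*, *COL3A1* and *DCN* stayed at or below 0.0400 FPKM in every library. *PECAM1* went from 0.857 to 1.04 FPKM in TPC-1 down to 0.0268 to 0.0971 in *RRM2*-OE-TPC-1 and *ACTA2* from 0.140 to 0.148 up to 2.00 to 2.90, and *COL1A1* fell from 0.816 to 0.501 FPKM. The part of these markers in the chaperone results was not tested. Pseudogenes and noncoding genes with the names of members held 0.152% to 0.253% as many reads as the members.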

How the data were processed

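RNA was enriched by poly(A) selection by the study's methods and by depletion of ribosomal RNA with RNase R treatment by the labels. The authors used fastp for trimming, HISAT2 2.0.5 for alignment and featureCounts 1.5.0 for counts per gene and deposited FPKM values, and the submitters' notes give GRCh38.p14. All 58735 identifiers matched GENCODE 29 in position. Multiplied by gene length, the deposited FPKM values gave whole reads for 100% of values, which served for the read minimum and for one alternative. The depth behind these FPKM values was 1.03 to 1.05 times the reads on genes in TPC-1 and 0.997 to 1.01 times in *RRM2*-OE-TPC-1. Scaled to the reads on genes (library totals), the log2 fold change was -0.18 for *HSPA5* and -0.18 for *HSPA9*. Values were tested as log2(FPKM + 0.1) in all 6 libraries with lmFit and eBayes (trend of variance on mean) of limma 3.58.1 in R 4.3.3, with Benjamini-Hochberg adjustment over 13621 genes. The script was tested on simulated data. Intervals of read ratios are exact and cover counting error only. Tables, motif searches and plots used Python 3.11.15, matplotlib 3.10.9, scipy 1.17.1, pandas 2.3.3 and numpy 2.4.6.

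The members, the classes and the lists were chosen with earlier results of these data known. Named with values were *RRM2*, all tested members of the heat-inducible, ER, mitochondrial, constitutive HSP70 and small heat shock protein classes, other members past both thresholds, the 4 largest rises and 4 largest falls of the rest, and listed genes outside the rule past both thresholds. Other members and partners were named so that the members are all accounted for, and some genes of the lists outside the name rule are not reported here. Alternatives were pseudocounts of 1 and 0.01, no filter, the FPKM minimum alone, library totals, median-of-ratios factors, the upper quartile, a block on the replicate number, omission of each library, and limma's voom on recovered reads. The authors' own tests were run with DESeq2 1.20.0, and no values of them were used. The same replicate number in both groups did not pair the libraries, with correlations of deviations of -0.0105, -0.006 and -0.055.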

Additional observations from a re-analysis of the deposited data

How the results depend on the processing

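Over 15 alternatives, 47 of 54 named genes kept direction and side of the threshold, and of 810 values 788 did, 14 missed the threshold and 8 changed sign. With library totals *DNAJA3*, *HSPB1*, *DNAJC15* and *DNAJC19* turned to log2 fold changes of -0.00324, -0.0574, -0.0117 and -0.0322, a scaling that moved the median of all genes from 0.011 to -0.045. With a library left out *DNAJA3* ranged from -0.016 to 0.091, *HSPB1* from -0.031 to 0.019 and *DNAJC19* from -0.043 to 0.063, and none of these genes was called in any alternative. Members called lower numbered 9 to 14 with a library left out: *HSPA5*, *DNAJB12*, *HSPB8* and *DNAJC13* lost calls, *DNAJC17* gained one, and the cause was not tested. With no filter on low values 2 members passed both thresholds as lower in place of 1, and 3 ER members were lower in place of 5. The number of lower ER members was 3 to 5 with a library left out. Over all genes, 610 higher and 950 lower past both thresholds became 303 and 413 with a pseudocount of 1, which left 7 members higher in place of 8, and 920 higher with no filter. With the replicate number as a block the members were 27 higher and 13 lower, past both thresholds 8 and 1, the heat-inducible members 7 higher and the ER members 3 higher and 5 lower, as without it, and since the numbers do not pair the libraries this block has no basis in the design. Depth limits the 19 members under the minimum: with no filter 16 of them were tested, and *HSPA6* was called higher (adjusted p = 0.00199) and *DNAJC28* lower (adjusted p = 0.0398).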
